A study of Mus musculus with 24 samples.

Results

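The genes described here encode the receptors through which macrophages read antibody and several microbial or cell-damage ligands: Fcgr1, Fcgr2b, Fcgr3 and Fcgr4, which encode the receptors for the Fc part of immunoglobulin G; Fcer1g, their shared signalling subunit; Fcgrt, the neonatal Fc receptor; and the C-type lectins Clec4d, Clec4e, Clec4n and Clec7a. They were chosen by name, as the rows of the count table whose gene ID maps to these 10 symbols. The table holds 56941 gene IDs, and all 10 genes were among the 14757 that passed the filter on low counts. RNA was sequenced from mouse bone marrow-derived macrophages, cells grown out of bone marrow in medium conditioned by L929 cells and then kept without it before stimulation. Macrophages came from wild-type mice (WT), from mice lacking Hdac9 (KO), a gene for a histone deacetylase, and from mice without a cis element linked to Hdac9 in the study's title (dCIS). Each genotype was left untreated or given 100 ng/ml of lipopolysaccharide (LPS), the bacterial ligand of the receptor TLR4, for 6 hours, and each of these 6 groups has 4 libraries. The way each allele was made is not given in the sources used here, nor are strain, age and sex, nor whether replicates are different animals or cultures, so p-values reflect only how far these libraries vary, a spread that may be technical.

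Activating Fc receptors carry no signalling tail that suffices alone. Fcgr1, Fcgr3 and Fcgr4 proteins pair with the Fcer1g chain, whose immunoreceptor tyrosine-based activation motif (ITAM) is phosphorylated by Src-family kinases and then recruits the kinase Syk, which starts phagocytosis, oxidant release and cytokine production. Fcgr2b is the inhibitory member: its tail carries an inhibitory motif (ITIM) that recruits the lipid phosphatase SHIP1, encoded by Inpp5d. Clec4e (Mincle), Clec4d and Clec4n (Dectin-2) bind glycolipids or mannose-rich glycans and also signal through Fcer1g, whereas Clec7a (Dectin-1) binds beta-glucan and carries a single tyrosine motif of its own; all of these lectins reach the adaptor Card9 through Syk. Fcgrt, a relative of MHC class I that binds beta-2-microglobulin, salvages immunoglobulin G and albumin from lysosomes.

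The tail motifs of Fcer1g, Fcgr2b and Clec7a can be read in the coding sequence of the GENCODE M21 transcripts on GRCm38. They are shown here because the RNA of these 3 genes moved differently. Capitals mark the codons of the motif's tyrosines and of its leucines or isoleucine. The Fcer1g stretch covers the ITAM, residues 65 to 79 of 86. The Fcgr2b stretch covers the ITIM, residues 317 to 322 of 340. The Clec7a stretch covers its single tyrosine motif, residues 15 to 18 of 199. Among the genes described here, the ITAM pattern was found in Fcer1g only. The ITIM pattern was found in Fcgr1, Fcgr4, Fcer1g, Fcgrt and Clec4n as well as Fcgr2b. The single tyrosine pattern was also found in Fcgr2b, Fcer1g, Fcgrt, Clec4d and Clec4e. The ITIM and single tyrosine patterns alone therefore do not separate activating from inhibitory members. Whether the other matches lie in a tail was not tested.
Fcer1g: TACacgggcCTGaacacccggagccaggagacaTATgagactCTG
Fcgr2b: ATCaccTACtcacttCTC
Clec7a: TATactcaaTTA

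Promoters are shown for the 4 genes with the largest rise after LPS (Clec4e, Fcgr4, Fcgr2b and Fcgr1) and for Fcgr3, whose coding sequence is close to that of Fcgr2b but which rose less. The sequences are RefSeq's, in build GRCm38.p6, and cover the 250 bases before the annotated start, 5′ to 3′ on the gene's strand. They lie at chr6:123289872-123290121 (minus strand) for Clec4e, chr1:171018676-171018925 (plus strand) for Fcgr4, chr1:170976072-170976321 (minus strand) for Fcgr2b, chr3:96293970-96294219 (minus strand) for Fcgr1 and chr1:171059404-171059653 (minus strand) for Fcgr3. Capitals mark matches to the motifs searched.
Clec4e: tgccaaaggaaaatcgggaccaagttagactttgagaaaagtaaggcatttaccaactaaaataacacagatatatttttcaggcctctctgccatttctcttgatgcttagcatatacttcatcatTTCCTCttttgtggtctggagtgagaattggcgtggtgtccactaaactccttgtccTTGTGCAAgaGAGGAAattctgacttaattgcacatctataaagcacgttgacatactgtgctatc
Fcgr4: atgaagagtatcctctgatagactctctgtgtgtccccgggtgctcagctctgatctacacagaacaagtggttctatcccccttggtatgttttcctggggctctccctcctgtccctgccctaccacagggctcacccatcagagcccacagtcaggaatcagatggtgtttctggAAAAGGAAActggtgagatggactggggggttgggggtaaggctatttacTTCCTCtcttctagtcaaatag
Fcgr2b: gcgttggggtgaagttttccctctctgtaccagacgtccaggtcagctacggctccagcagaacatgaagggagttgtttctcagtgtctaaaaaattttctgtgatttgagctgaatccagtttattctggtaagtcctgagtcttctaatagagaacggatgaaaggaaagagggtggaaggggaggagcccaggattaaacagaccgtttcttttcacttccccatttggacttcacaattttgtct
Fcgr1: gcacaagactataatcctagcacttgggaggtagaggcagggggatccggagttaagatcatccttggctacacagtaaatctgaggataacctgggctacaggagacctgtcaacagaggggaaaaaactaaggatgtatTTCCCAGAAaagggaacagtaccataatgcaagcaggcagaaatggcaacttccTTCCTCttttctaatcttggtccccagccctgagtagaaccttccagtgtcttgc
Fcgr3: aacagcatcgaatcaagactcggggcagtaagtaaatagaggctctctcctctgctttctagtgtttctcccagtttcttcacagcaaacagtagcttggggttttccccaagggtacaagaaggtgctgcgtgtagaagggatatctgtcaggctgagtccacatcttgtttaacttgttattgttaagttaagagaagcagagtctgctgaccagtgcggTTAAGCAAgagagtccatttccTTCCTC

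The search took both strands of 250 bases before to 50 bases after the start, in 9 of the 10 genes; Clec4n had no promoter in the table. Over all 27025 promoters of that length, GAGGAA (the core bound by the myeloid factor PU.1) occurred in 28.3%, TTGCNNAA (C/EBP) in 10.8%, AAANNGAAA (interferon response) in 10.7%, TTCNNNGAA (STAT, GAS) in 8.47%, TGANTCA (AP-1) in 7.93% and GGANNTTCC (kappa-B core) in 4.24%. GAGGAA was present in Fcgr1, Fcgr3, Fcgr4, Clec4d, Clec4e and Clec7a. In Clec4e it occurred at both 123 and 56 bases before the start, with a C/EBP match at 66 bases. Fcgr3 and Fcgrt, which rose less or had no called response, each held a C/EBP match as well. Fcgr1 held a GAS match, TTCCCAGAA, beginning 109 bases before the start. Fcgr4 held the interferon response match AAAAGGAAA at 72 bases before the start, Clec7a held 2 such matches, and in Clec4d an interferon match overlapped a GAGGAA match just after the start. Fcgr2b and Fcer1g held none of the 6 motifs, and no gene held the kappa-B core or the AP-1 letters. A match is a description of letters, and its absence says nothing about a factor.

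Total counts per library ranged from 14636058 to 19181707. Genes with at least 1 count numbered 20458 to 22736 in 22 libraries and fewer in dCIS LPS libraries 3 and 4 (17628 and 15997). Hdac9 stood at 11.2 ± 1.46 CPM (counts per 1000000 on TMM-scaled library sizes; SD, n = 4) in untreated WT, 1.04 ± 0.218 CPM in KO and 15.6 ± 2.23 CPM in dCIS, and at 12.3 ± 2.83, 0.302 ± 0.155 and 14.6 ± 5.26 CPM after LPS, so the KO label held and the dCIS libraries did not have less Hdac9 RNA. All 8 macrophage markers were present, with a summed level of 15400 to 25100 CPM. The summed level was at most 4.22 CPM for 7 neutrophil markers, 0.167 CPM for 6 mast cell and basophil markers (Fcer1a, Mcpt4, Mcpt8 and Tpsb2 were at 0 in every library), 14.8 CPM for 5 B cell markers, 0.575 CPM for 5 T and NK cell markers, 2.47 CPM for 5 dendritic cell markers, 20 CPM for 5 osteoclast markers and 4.78 CPM for 5 fibroblast and endothelial markers. Some of these sums moved with LPS: in WT, B cell markers went from 7.43 to 14.8 CPM untreated to 2.94 to 4.43 CPM, fibroblast and endothelial markers from 0.0485 to 0.286 CPM to 2.87 to 3.92 CPM, neutrophil markers from 1.07 to 2.51 CPM to 2.95 to 3.61 CPM, and macrophage markers from 18800 to 21700 CPM to 22000 to 24900 CPM. Their part in the LPS results was not tested.

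In WT macrophages LPS raised 7 of the 10 genes, lowered 1 and left 2 below the threshold. Clec4e rose most, 27.8-fold, followed by the activating receptors Fcgr4 and Fcgr1 and the inhibitory Fcgr2b, each about an order of magnitude; Fcgr3, Fcer1g and Clec4d rose by smaller factors, and Clec4n was lower. A gene was called at an edgeR adjusted p under 0.05, which 61.4% of all tested genes met in this comparison (30.4% higher and 31% lower). The median log2 fold change of the 10 genes was 1.21, against 0 over all genes tested. In KO the counts were again 7 higher, 1 lower and 2 not called, where 61.6% of all genes were called (30.9% higher, 30.7% lower; median 1.19 against 0.02), and in dCIS they were also 7, 1 and 2, where 64.7% were called (31.3% higher, 33.3% lower; median 1.01 against -0.05). In bulk RNA, fewer cells of a type and less RNA per cell cannot be told apart. The TMM scaling factors were 1.287 to 1.364 in untreated libraries and 0.6945 to 0.8263 in LPS libraries. Every LPS change in CPM or fold change includes this shift, and small changes depend on it most. No fit without such scaling was run.

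**Figure D1:**
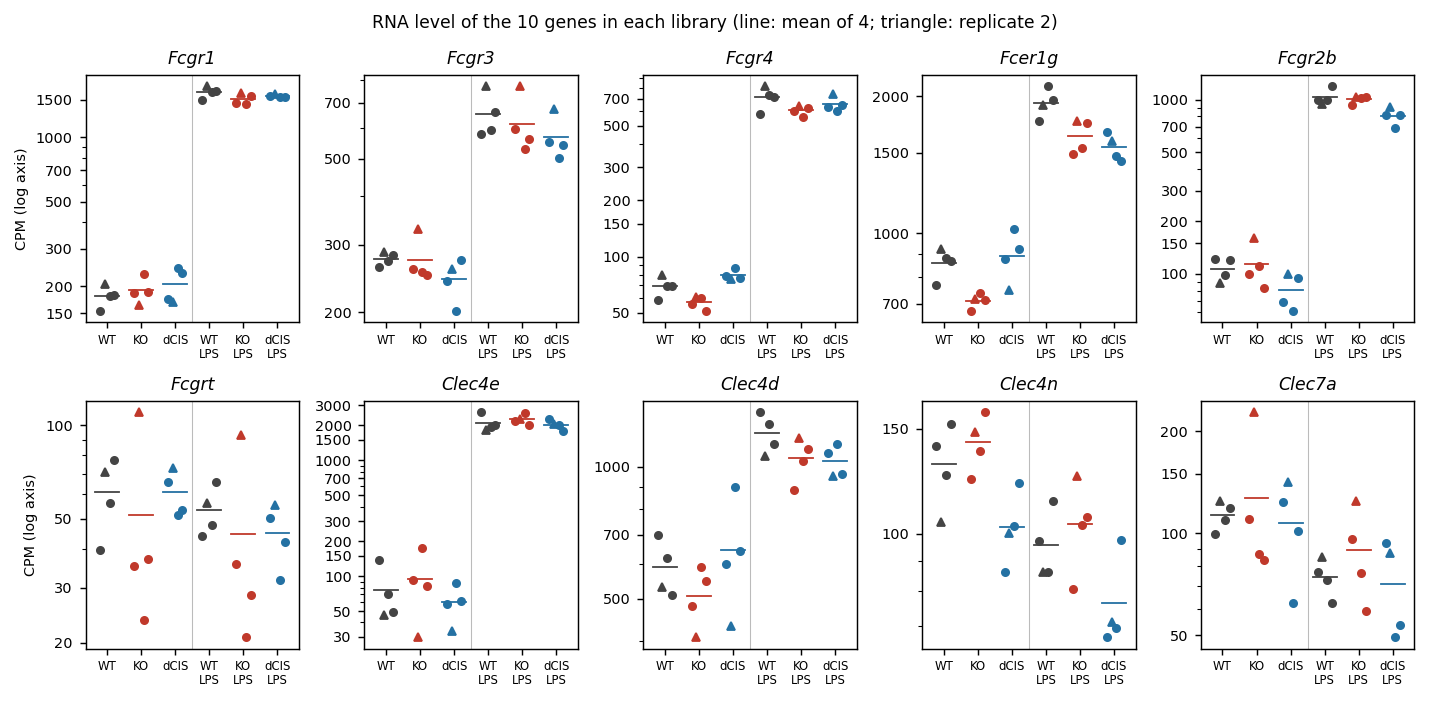
RNA level in CPM (log axis, its range differing between panels) of each of the 10 genes in all 24 libraries, by genotype and treatment; lines are means of 4 libraries and triangles mark replicate 2. Clec4e rises from 29.82 to 175.5 CPM untreated to 1786 to 2608 CPM after LPS, and KO replicate 2 lies above the other KO libraries for Fcgrt and Clec7a.

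**Figure D2:**
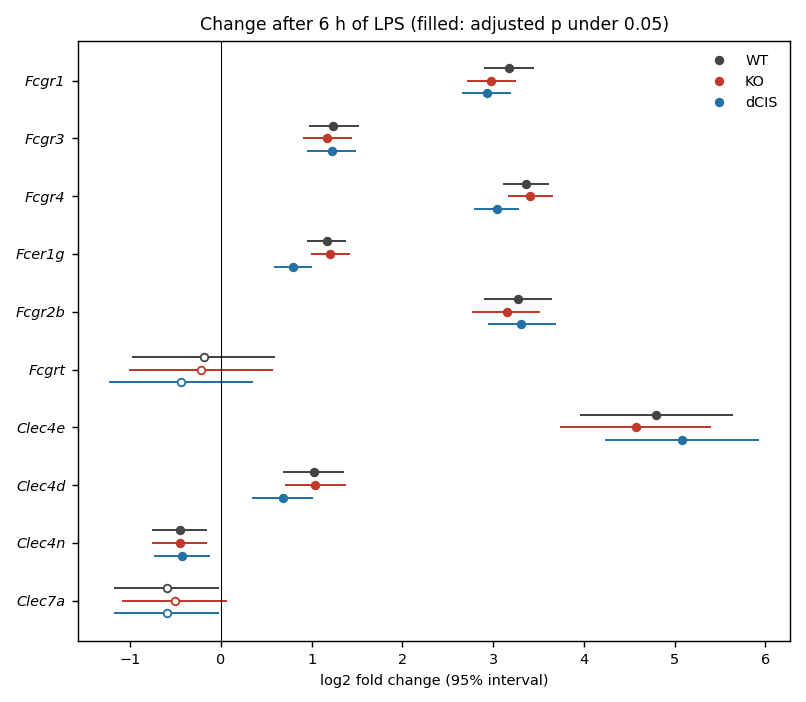
Log2 fold change after LPS with its 95% interval (x axis) for each gene in WT, KO and dCIS; filled points passed an edgeR adjusted p under 0.05. Fcgr1, Fcgr2b and Fcgr4 lie between 2.93 and 3.41 in all 3 genotypes, Clec4e between 4.57 and 5.08, and Fcgrt and Clec7a are open.

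Among the activating IgG receptors, Fcgr1, the high-affinity receptor for monomeric IgG, was at 153.5, 206.4, 181.1 and 181.5 CPM in untreated WT libraries 1 to 4 and at 1491, 1747, 1633 and 1653 CPM after LPS. The untreated values were 187.4, 163.1, 229.2 and 188.2 CPM in KO and 174.4, 168.6, 244.9 and 231.4 CPM in dCIS. After LPS they were 1456, 1619, 1429 and 1558 CPM in KO and 1558, 1598, 1549 and 1546 CPM in dCIS. Every LPS library lay far above every untreated one, and the genotypes overlapped within each treatment. The log2 fold change was 3.17 in WT (95% interval 2.91 to 3.44; edgeR adjusted p 1.89e-17), 2.98 in KO (2.72 to 3.24) and 2.93 in dCIS (2.67 to 3.19).

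Fcgr4, a receptor for IgG2 subclasses on mouse myeloid cells, had 58.70, 80.02, 69.37 and 69.79 CPM in untreated WT and 579.3, 819.2, 735.6 and 716.6 CPM after LPS. In KO it went from 56.02, 60.57, 60.28 and 51.12 CPM to 604.2, 635.2, 557.3 and 626.0 CPM. In dCIS it went from 79.12, 75.96, 86.81 and 77.17 CPM to 627.2, 744.1, 600.7 and 646.4 CPM. The untreated KO and dCIS libraries did not overlap, with KO lower. After LPS they overlapped, with a lower mean in KO (606 against 655 CPM, log2 -0.11, interval -0.33 to 0.1). Whether the LPS response differed between KO and dCIS was not tested. The log2 fold change was 3.36 in WT (SE 0.115; edgeR adjusted p 6.68e-19), 3.41 in KO and 3.04 in dCIS, a 10.3-fold, 10.6-fold and 8.21-fold rise.

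Fcgr3, the low-affinity activating receptor, started higher relative to its own LPS level. Its WT values were 261.6, 287.4, 272.3 and 282.5 CPM untreated and 581.3, 774.1, 594.0 and 660.3 CPM after LPS. It had 259.5, 329.5, 255.0 and 250.2 CPM in untreated KO and 241.5, 259.6, 201.7 and 274.0 CPM in untreated dCIS. After LPS the KO libraries had 597.9, 771.6, 530.5 and 564.2 CPM and the dCIS libraries 552.9, 675.7, 504.2 and 543.6 CPM. Library 2 was the highest of the 4 in 5 of the 6 groups. LPS changed it by 1.24 on the log2 scale in WT (0.98 to 1.51; edgeR adjusted p 3.81e-09), 1.17 in KO and 1.22 in dCIS, so Fcgr3 rose 2.25-fold to 2.36-fold.

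Fcer1g, the ITAM chain printed above, was at 769.7, 922.8, 879.5 and 867.6 CPM in untreated WT and at 1763, 1909, 2107 and 1959 CPM after LPS. In KO it was at 674.0, 716.3, 738.2 and 712.2 CPM, then 1491, 1761, 1541 and 1741 CPM. In dCIS it was at 878.3, 748.8, 1020 and 922.8 CPM, then 1668, 1590, 1478 and 1440 CPM. Untreated KO libraries all lay below every WT and dCIS library, and after LPS every KO and every dCIS library lay below every WT library, though KO by a narrow margin (1761 against 1763 CPM). The rise was 1.17 in WT on the log2 scale (SE 0.0997; edgeR adjusted p 9.3e-11), 1.20 in KO and 0.79 in dCIS, or 2.25-fold, 2.30-fold and 1.73-fold.

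The inhibitory receptor Fcgr2b rose with the activating ones. It had 121.2, 87.93, 98.53 and 119.5 CPM in untreated WT and 988.9, 945.8, 997.9 and 1200 CPM after LPS. It had 99.89, 159.6, 110.8 and 82.48 CPM in untreated KO and 928.0, 1034, 1020 and 1031 CPM after LPS. In dCIS the values were 69.06, 100.0, 61.13 and 94.20 CPM untreated and 816.9, 902.8, 690.3 and 815.4 CPM after LPS. After LPS every dCIS library was below every WT and KO library. The log2 fold change was 3.27 in WT (2.91 to 3.64; edgeR adjusted p 8.42e-15), 3.15 in KO and 3.31 in dCIS.

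The balance of inhibitory to activating receptor RNA depended on which activating receptor was the reference. Levels of different genes are not compared here, since the table gives no lengths; only the change of a log2 ratio within libraries is read. The log2 ratio of Fcgr2b to Fcgr3 ranged from -1.81 to -1.05 over the 12 untreated libraries and from 0.29 to 0.94 over the 12 LPS libraries, with no overlap. In WT its mean moved from -1.38 ± 0.264 to 0.67 ± 0.256 (SD, n = 4), in KO from -1.31 ± 0.237 to 0.72 ± 0.237 and in dCIS from -1.61 ± 0.191 to 0.50 ± 0.0827. The ratio of Fcgr2b to Fcgr1 overlapped between treatments in each genotype (WT means -0.76 and -0.66), as did that of Fcgr2b to Fcgr4 (WT means 0.62 and 0.54). Fcgr2b and Fcgr3 share 87.5% of aligned coding bases. Of windows as long as a read, 60 bases, 9.21% of Fcgr2b (321 of 3485) and 10.6% of Fcgr3 (136 of 1288) also occur in another gene. The pair had 136 of these windows in common, and the remaining shared windows of Fcgr2b occur in genes other than Fcgr3. How reads from shared windows were assigned depends on the authors' counting, and the values of both genes carry that uncertainty. No such window was shared for Fcgr1, Fcgr4, Fcer1g, Fcgrt, Clec4d, Clec4e or Clec7a, and 1 for Clec4n.

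**Figure D3:**
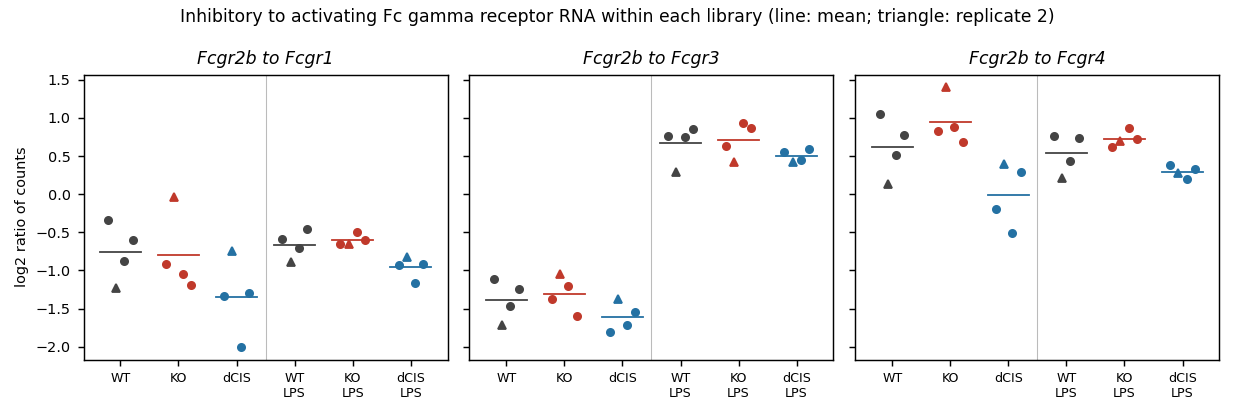
Log2 ratio of Fcgr2b counts to Fcgr1, Fcgr3 or Fcgr4 counts within each of the 24 libraries, by genotype and treatment; lines are means of 4 libraries and triangles mark replicate 2. The ratio to Fcgr3 moves from -1.81 to -1.05 untreated to 0.29 to 0.94 after LPS, while those to Fcgr1 and Fcgr4 overlap between treatments.

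Fcgrt showed no called response and a wide spread between KO libraries. It was at 39.85, 70.79, 56.36 and 77.25 CPM in untreated WT and 43.98, 56.07, 47.67 and 65.73 CPM after LPS. In KO it was at 35.40, 110.3, 23.71 and 37.23 CPM untreated and 35.80, 93.34, 20.82 and 28.55 CPM after LPS. In dCIS it was at 65.96, 73.05, 51.51 and 53.39 CPM, then 50.44, 55.33, 31.93 and 42.03 CPM. KO library 2 was above every other library under both treatments, and the other 3 KO libraries of each treatment were below every WT library. The log2 fold change was -0.19 in WT (-0.97 to 0.58), -0.22 in KO and -0.44 in dCIS (edgeR adjusted p 0.677, 0.642 and 0.315). In KO it was 0.47 without untreated library 2 and -0.87 without LPS library 2 (edgeR adjusted p 0.234 and 0.0361), and -0.18 without both.

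Of the lectins, Clec4e had the largest response of the 10 genes. It was at 137.1, 46.11, 70.04 and 49.09 CPM in untreated WT and 2608, 1818, 1952 and 2038 CPM after LPS. In KO it went from 92.53, 29.82, 175.5 and 82.02 CPM to 2174, 2278, 2570 and 2009 CPM. In dCIS it went from 57.68, 33.50, 88.25 and 61.69 CPM to 2286, 2051, 2031 and 1786 CPM. Untreated libraries differed several-fold among themselves, with library 2 the lowest in all 3 genotypes, whereas the LPS libraries were close together. The rise was 27.8-fold in WT (15.7 to 49.4; log2 4.8, SE 0.402, edgeR adjusted p 6.73e-11), 23.8-fold in KO (13.5 to 42) and 33.8-fold in dCIS (18.9 to 60.5).

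Clec4d, which forms a complex with Clec4e, was already abundant untreated and rose less. Its WT values were 700.1, 531.7, 618.7 and 509.2 CPM, then 1333, 1061, 1254 and 1130 CPM after LPS. The KO values were 481.0, 408.1, 589.9 and 547.4 CPM, then 885.8, 1162, 1032 and 1100 CPM. The dCIS values were 599.8, 433.2, 901.2 and 642.9 CPM, then 1075, 952.6, 1125 and 964.5 CPM. Untreated dCIS library 3 came close to the dCIS LPS libraries without reaching them. Its log2 fold change was 1.02 in WT (0.69 to 1.35), 1.04 in KO and 0.68 in dCIS (edgeR adjusted p 3.79e-06, 2.62e-06 and 0.000573). Before scaling, the dCIS counts overlapped between treatments, at 9244 to 18176 untreated and 11588 to 15356 after LPS. The Clec4d rise in dCIS therefore rests on the TMM factors.

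Within libraries the log2 ratio of Clec4e to Clec4d ran from -3.77 to -1.75 untreated and from 0.64 to 1.32 after LPS. The 2 partner genes thus rose by unequal factors in every genotype, with no overlap of the ratio between treatments.

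Clec4n, which lies in the same gene cluster, was lower after LPS. It had 140.4, 104.7, 125.4 and 153.0 CPM in untreated WT and 97.11, 86.35, 86.08 and 113.3 CPM after LPS. It had 123.3, 148.2, 137.7 and 159.9 CPM in untreated KO and 80.59, 125.0, 103.2 and 106.7 CPM after LPS. It had 86.26, 100.2, 103.0 and 121.6 CPM in untreated dCIS and 66.98, 71.11, 69.50 and 97.72 CPM after LPS. Groups overlapped between treatments in each genotype, and each of the 12 same-numbered pairs was lower after LPS. What libraries of the same number share is not given, and numbers in dCIS did not meet the pairing rule given below. The share of all genes with such a count of pairs was not counted, so it is a description only. Clec4n fell by 0.45 in WT, 0.45 in KO and 0.43 in dCIS on the log2 scale (edgeR adjusted p 0.00824, 0.00789 and 0.0114), and the dCIS call was lost without untreated dCIS library 4 (0.0528).

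Clec7a had lower values after LPS, and whether they passed the test depended on the fit. It had 99.80, 124.2, 109.3 and 118.4 CPM in untreated WT and 77.16, 84.95, 72.83 and 62.49 CPM after LPS, which did not overlap. In KO it had 110.0, 227.9, 87.15 and 83.24 CPM, then 96.27, 124.6, 76.49 and 59.17 CPM. In dCIS it had 124.1, 141.7, 62.42 and 101.5 CPM, then 93.74, 87.55, 49.36 and 53.48 CPM. Each of the 12 same-numbered pairs was lower after LPS, again as a description only, and KO library 2 was the highest KO library under both treatments. The log2 fold change was -0.60 in WT (-1.17 to -0.03), -0.51 in KO and -0.60 in dCIS (edgeR adjusted p 0.0626, 0.111 and 0.062). With the replicate number as a block within each genotype, Clec7a fell by 0.61 in WT (edgeR adjusted p 9.37e-05) and by 0.44 in KO (0.00204), the pairs whose numbers met the pairing rule. It also passed in WT fitted alone (-0.64, 3.23e-05), in KO without untreated library 4 (0.0452) or LPS library 2 (0.0387), and in dCIS without untreated library 3 (-0.90, 0.00573), LPS library 1 (0.0302) or LPS library 2 (0.0434). Without untreated KO library 2 the value in KO was -0.07 (0.813), without both KO libraries 2 it was -0.28 (0.348), and without dCIS LPS libraries 3 and 4 that in dCIS was -0.25 (0.537).

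**Figure D4:**
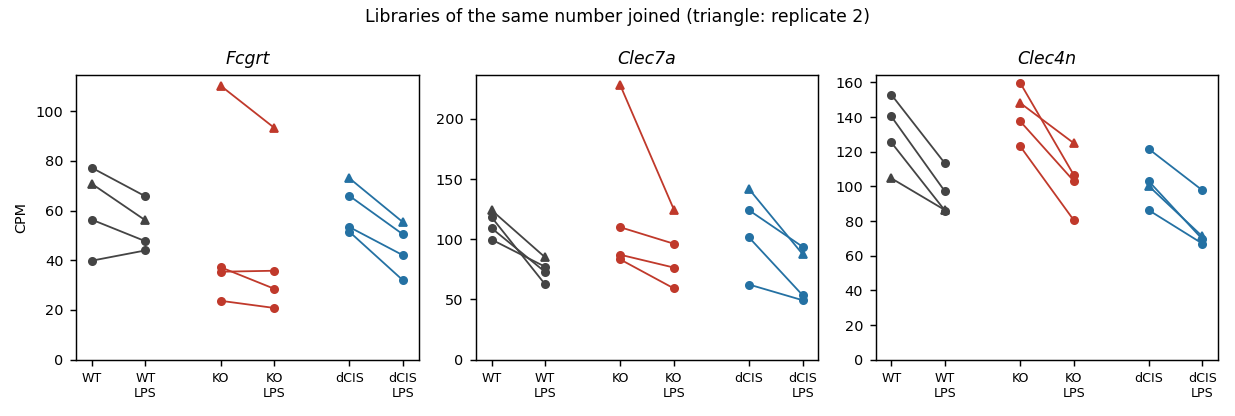
CPM of Fcgrt, Clec7a and Clec4n untreated and after LPS, with libraries of the same number joined by a line; triangles mark replicate 2. All 12 lines of Clec7a and of Clec4n slope down, while Fcgrt of KO replicate 2 runs from 110.3 to 93.34 CPM, above the other KO libraries.

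The genes downstream of these receptors were examined as lists. Their counts stand beside the shares over all genes given above, which in WT were 30.4% higher and 31% lower with a median of 0. Of 22 tested ITAM kinases and adaptors, 16 rose and 3 fell in WT (median log2 0.92), 15 and 3 in KO, and 16 and 3 in dCIS. The adaptor gene Lcp2 rose from 123 to 884 CPM in WT, the Src-family kinase gene Lyn from 287 to 1370 CPM, and Syk from 420 to 1010 CPM. The log2 changes in WT were 2.84, 2.26 and 1.27 in that order. Card9, the adaptor that links Syk to NF-kB for the lectins, fell in all 3 genotypes: 48.8 to 13.4 CPM in WT, 36.9 to 10.6 CPM in KO, 47.9 to 13.5 CPM in dCIS (edgeR adjusted p 2.2e-11, 6.52e-11 and 3.31e-11), while its partner Malt1 rose from 25.8 to 313 CPM in WT. Tyrobp, the other ITAM adaptor of macrophages, had 668 CPM in untreated WT and 652 CPM in WT given LPS (log2 -0.03, SE 0.0955, edgeR adjusted p 0.774).

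Of 14 tested phosphatases and other brakes on ITAM signalling, 5 rose and 5 fell in WT and in KO, near the shares over all genes, and 9 rose and 4 fell in dCIS. Inpp5d, whose product is recruited by Fcgr2b, fell in WT (213 to 54.4 CPM; log2 -1.97, SE 0.131), KO (267 to 55.9 CPM) and dCIS (220 to 67.8 CPM), while Fcgr2b itself rose. Ptpn22, a tyrosine phosphatase, fell from 22.4 to 3.45 CPM in WT, and Csk, which holds Src-family kinases inactive, rose by 0.91 on the log2 scale. Of 19 tested receptors with ITIM tails, 9 rose and 6 fell in WT. Pirb, a receptor for MHC class I, rose from 566 to 1140 CPM, Milr1 rose from 107 to 277 CPM, Cd300a fell from 105 to 23.6 CPM, and Clec4a2, a lectin with an ITIM from the Clec4 cluster, fell from 105 to 72.8 CPM.

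Of 19 other tested receptors that pair with Fcer1g or Tyrobp, 7 were higher and 5 lower in WT, again near the shares over all genes. Klrk1 rose from 0.0589 to 26.3 CPM and Clec5a from 44.3 to 94.8 CPM, while Cd300lb fell from 151 to 16.4 CPM and Trem2 from 583 to 439 CPM. Of 9 tested C-type lectins outside the lists above, 4 rose and 2 fell; Clec2d rose from 60.9 to 183 CPM and Ly75 from 1.38 to 6.29 CPM. Of 6 tested genes listed with the Fc receptors, 3 rose and 2 fell. Trim21, a cytosolic antibody receptor, rose from 25.3 to 227 CPM, and B2m, the partner chain of Fcgrt, from 2030 to 5580 CPM. Fcrl1 went from 6.06 to 1.37 CPM. Of 24 tested genes of the phagocytic machinery, 15 rose and 6 fell, with the oxidase subunit Cybb from 793 to 3310 CPM and Ncf1 from 285 to 658 CPM.

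Between genotypes, calls among the 10 genes came in 1 of the 6 comparisons, untreated KO against dCIS. For the genes that LPS raised, genotype differences were at most 0.65 on the log2 scale, whereas for Clec4n the difference between KO and dCIS (0.47 untreated, 0.44 after LPS) was as large as its LPS change. Comparisons of KO and of dCIS with WT share the WT libraries, so their values are given side by side and not counted as independent. In untreated cells edgeR called 0 of the 10 genes between KO and WT, where 7.31% of all genes were called (5.03% higher, 2.28% lower). DESeq2 called 1 of the 10, and 1999 genes in all, against 1079 with edgeR. An unadjusted p under 0.05 was reached by 2, against 25.2% of all genes: Fcgr4 (log2 -0.29, interval -0.50 to -0.07, edgeR adjusted p 0.0924) and Fcer1g (-0.28, -0.48 to -0.07, 0.0788). Fitted on KO and WT untreated libraries only, Fcer1g passed (0.0371), as it did with DESeq2 (0.0318). The fit on those libraries only called 2351 genes in all. After LPS edgeR and DESeq2 called 0 between KO and WT, where edgeR called 2.74% of all genes (2.31% higher, 0.434% lower), and 2 were again at an unadjusted p under 0.05, against 21.2% of all genes: Fcgr4 (-0.23, edgeR adjusted p 0.198) and Fcer1g (-0.24, 0.157).

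Fcgrt in KO rested on library 2. With all libraries the log2 difference from WT was -0.24 untreated and -0.26 after LPS (edgeR adjusted p 0.739 and 0.749). Without both KO libraries 2 it was -0.92 untreated (0.0178) and -0.91 after LPS (0.037). Untreated KO library 2 also had the highest level of the 4 for Fcgr2b, Fcgr3 and Clec7a and the lowest for Clec4e and Clec4d. Its marker sums were 21500 CPM for macrophages, against 19700 to 20300 CPM in the other 3, 3.38 CPM for neutrophils against 1.07 to 1.88 CPM, and 13 CPM for B cells against 6.68 to 8.45 CPM. Dendritic cell markers had 1.13 against 0.469 to 1.02 CPM, and T and NK cell markers 0.281 against 0 to 0.0939 CPM. Osteoclast markers (10.9 against 10 to 14.5 CPM) and mast cell and basophil markers (0.0402 against 0 to 0.145 CPM) lay within the others. Fibroblast and endothelial markers were lower (0.201 against 0.282 to 0.346 CPM). The part of these markers in the results was not tested.

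Between dCIS and WT, edgeR called 0 of the 10 genes untreated and 0 after LPS, where 0.0542% (0.00678% higher, 0.0474% lower) and 0.258% (0.115% higher, 0.142% lower) of all genes were called. Untreated, DESeq2 called 0 and 2 were at an unadjusted p under 0.05, against 3.61% of all genes: Fcgr2b (log2 -0.40, interval -0.74 to -0.06) and Clec4n (-0.35, -0.64 to -0.05), both at an edgeR adjusted p of 1. After LPS, 3 were, against 13.1% of all genes: Fcgr2b (-0.36), Clec4n (-0.33) and Fcer1g (-0.32, -0.53 to -0.12), at edgeR adjusted p 0.343, 0.328 and 0.143, and Fcer1g passed with DESeq2 (0.0243). DESeq2 called 218 genes in all after LPS, against 38 with edgeR. Without dCIS LPS libraries 3 and 4, which had the lowest Fcer1g of that group, the Fcer1g value was -0.25 (0.47). For Fcgr2b and Fcer1g the dCIS LPS libraries lay below all WT LPS libraries. The share of all genes whose groups separate in this way was not counted, here or for the single genes above. Such separation between genotypes is therefore given as a description only.

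KO and dCIS differed from each other in 4 of the 10 genes untreated, 2 higher and 2 lower in KO, where 21.3% of all genes were called (12.1% higher and 9.25% lower), with 5 at an unadjusted p under 0.05, against 35.2% of all genes. Fcgr4 was lower in KO, 57.0 ± 4.43 against 79.8 ± 4.88 CPM (SD, n = 4; log2 -0.48, SE 0.107, edgeR adjusted p 0.00398), and Fcer1g too, 710 ± 26.7 against 892 ± 113 CPM (-0.33, SE 0.0985, 0.0198). Clec4n was higher in KO, 142 ± 15.5 against 103 ± 14.5 CPM (0.47, SE 0.143, 0.0218), and Fcgr2b too, 113 ± 33.1 against 81.1 ± 18.9 CPM (0.48, SE 0.165, 0.038). The Fcgr4 call held without any 1 of the 8 libraries (edgeR adjusted p 0.00203 to 0.0172). Without KO library 2 the Fcgr2b difference was 0.27 in place of 0.48. The Fcgr2b call was lost without KO library 2 or 3 or dCIS library 1 or 3, that of Fcer1g without KO library 1 or dCIS library 3 or 4, and that of Clec4n without KO library 4 or dCIS library 1 or 3, with adjusted p up to 0.212, 0.0823 and 0.08; the count of called genes ran from 1 (without dCIS library 3) to 5, and was 2 without dCIS library 1. Clec4e had the largest value of this comparison without being called (0.65, interval -0.06 to 1.37, edgeR adjusted p 0.182), and was called without a filter (4.87e-06) and, at 0.96, without KO library 2 (0.0284). Clec4d (-0.35, 0.116) was called without a filter (0.0384) and, at -0.49, without dCIS library 2 (0.0119), while Fcer1g lost its call without a filter (0.0522). After LPS edgeR and DESeq2 called 0, where edgeR called 2.18% of all genes (1.35% higher, 0.834% lower), with 1 at an unadjusted p under 0.05, against 20.2% of all genes. It was Clec4n (0.44, interval 0.15 to 0.74, edgeR adjusted p 0.0972), which was called with the replicate block over all groups (0.46, 0.0242), without a filter (0.42, 0.028) and without dCIS LPS library 4 (0.59, 0.05).

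**Figure D5:**
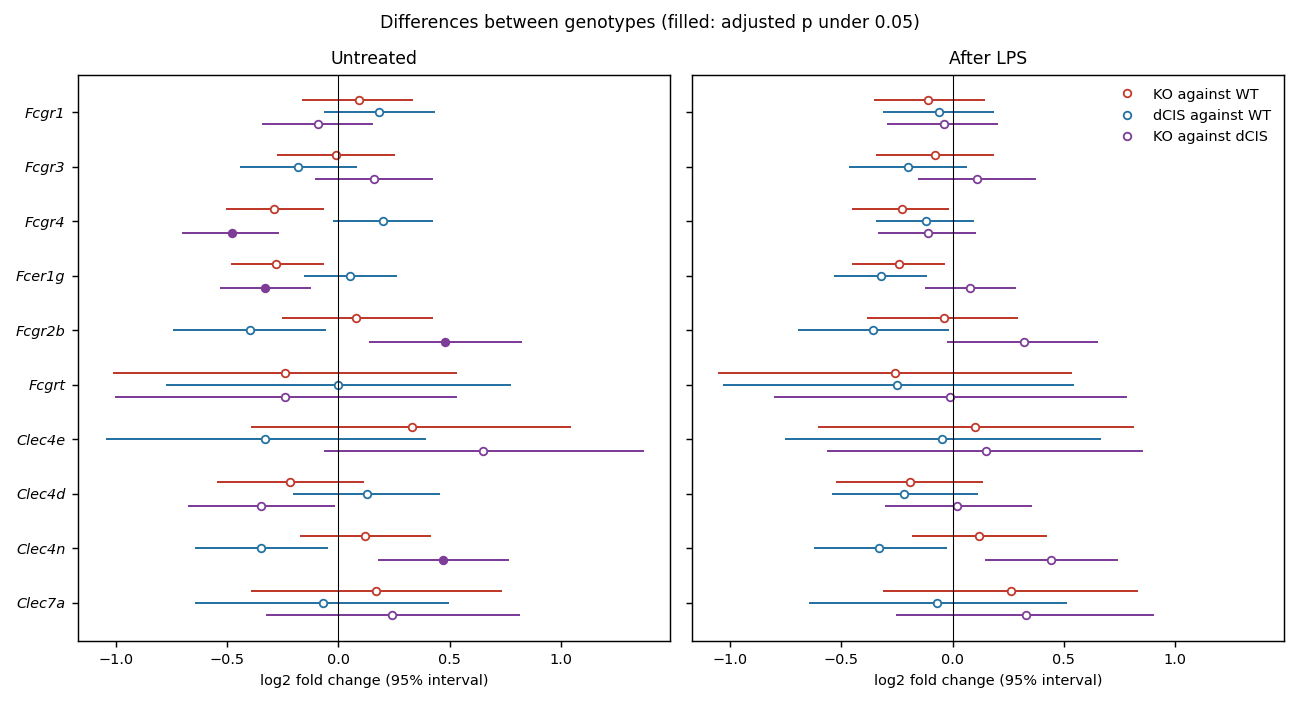
Log2 differences between genotypes with 95% intervals (x axis) for each gene, untreated (left) and after LPS (right); filled points passed an edgeR adjusted p under 0.05. The 4 filled points are Fcgr4, Fcer1g, Fcgr2b and Clec4n in untreated KO against dCIS, and the widest intervals are those of Fcgrt, Clec4e and Clec7a.

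Whether the LPS response itself differed by genotype was tested as an interaction. Against WT, edgeR and DESeq2 called 0 of the 10 genes in KO, with 0 at an unadjusted p under 0.05 (1.75% of all genes), where edgeR called 0.0203% of all genes (0.0136% higher, 0.00678% lower); differences ran from -0.23 (Clec4e, interval -1.23 to 0.78) to 0.09 (Clec7a). In dCIS both called 0, where edgeR called 0% of all genes, with 2 at an unadjusted p under 0.05, against 7.85% of all genes. The rise of Fcer1g was smaller by 0.38 on the log2 scale (difference -0.38, interval -0.66 to -0.09, edgeR adjusted p 0.543) and that of Fcgr4 had a difference of -0.32 (-0.63 to -0.02, 0.619). Without dCIS LPS libraries 3 and 4 these were -0.30 and -0.26. The intervals leave room for differences of this size in most of the genes, so equal responses are not shown.

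In untreated KO against dCIS, where 12.1% of all genes were higher and 9.25% lower, 7 of 22 ITAM kinases and adaptors were higher and 1 lower, Syk among the higher (log2 0.36, SE 0.111, edgeR adjusted p 0.0246), and Lat2 the lower (-0.40, 0.0118). Of 24 phagocytosis genes 6 were higher in KO than in dCIS and 4 were higher than in WT (5.03% of all genes), and Cybb passed in both (0.54 and 0.48, adjusted p 0.00748 and 0.0324). Cbl, a ubiquitin ligase that limits Syk signalling, was higher in KO than in WT untreated (0.71, edgeR adjusted p 0.0255) and after LPS (0.69, 0.0386). Against WT, untreated KO had 1 of 22 ITAM genes higher. After LPS, KO had 0 of 22 ITAM and 0 of 24 phagocytosis genes called against WT or dCIS. In untreated KO against dCIS, 3 of 14 brakes were higher, and 1 of 19 other activating receptors was higher and 2 lower. There 1 of 9 other lectins was higher, and 0 of 19 ITIM receptors and 0 of 6 genes listed with the Fc receptors were called. In dCIS against WT, edgeR called 0 members of these 7 lists at either treatment, where it called 0.0542% and 0.258% of all genes.

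Fcgr2b, Fcgr3, Fcgr4 and Fcer1g lie near each other on chromosome 1, and the Clec4 genes on chromosome 6, in the GRCm38 assembly. Of 16 tested neighbours of the first region, edgeR called 0 in KO or dCIS against WT at either treatment, and in KO against dCIS it called Atf6 untreated (log2 0.42) and Pcp4l1 after LPS (0.87). Of 10 tested neighbours of the Clec4 genes, Emg1 was lower in untreated KO than in WT (-0.43, edgeR adjusted p 0.0489) and than in dCIS, and Lpcat3 was higher in untreated KO than in dCIS (0.43). Of 10 tested neighbours each, edgeR called Bola1 near Fcgr1 in untreated KO against WT (-0.63) and dCIS (-0.61), Prr12 (0.50) and Rpl13a (-0.50) untreated and Prrg2 (-0.53) after LPS near Fcgrt in KO against dCIS, and 0 near Clec7a between genotypes. For comparison, 7.31% of all genes were called in untreated KO against WT, 21.3% in untreated KO against dCIS and 2.18% after LPS.

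As a description, the genes whose log2 level over the 24 libraries had the highest Pearson r with each member were Tap1 and Irf7 for Fcgr1 (0.998 each), Max and Sp110 for Fcgr4 (0.997 each), Mtus1 and Mtmr14 for Fcgr2b (0.994 and 0.993), Cd86 and Cd83 for Fcgr3 (0.986 each), and Arpc3 and Psme1 for Fcer1g (0.987 and 0.986). They were Acod1 and Tarm1 for Clec4e (0.998 and 0.996) and Denr and Psma6 for Clec4d (0.978 each). For the genes with small responses the values were lower: Rell1 and Ucp2 for Clec7a (0.907 and 0.89), Acss2 and Chml for Clec4n (0.896 and 0.855), and Abhd12 and Laptm5 for Fcgrt (0.872 and 0.87). All 24 points share the split between untreated and LPS libraries. No r was computed within a treatment, so how much of these values the split sets was not tested.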

How the data were processed

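The authors deposited a table of whole-number counts per mouse gene for all 24 libraries, from poly-A RNA (200 ng input, 60-nucleotide paired reads, per the labels' protocols). STAR, edgeR and build mm39 are named, per the submitters' processing notes. How reads were counted, with which strand setting and annotation, is not given in the sources used here, so antisense or overlapping genes cannot be told apart. Of 56941 IDs, 51948 (91.2%) matched a symbol.

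Genes were kept by edgeR's group-aware filter (minimum count 10, minimum total 15), leaving 14757. The quasi-likelihood test of edgeR 4.0.16 (R 4.3.3, TMM) was fitted once to the 24 libraries with a mean per group. Tests are 2-sided, with Benjamini-Hochberg adjustment across the 14757 genes. CPM uses TMM-scaled library sizes; intervals are 95%. The fit was tested on simulated data for the WT LPS comparison only, with planted changes larger than the genotype differences of the 10 genes. Genotype differences were not simulated. No pair of libraries of a group (36 pairs) agreed within sampling noise. Same-numbered libraries deviated together in WT (r 0.11 to 0.15) and KO (0.16 to 0.30), which met the pairing rule of r over 0.1 in every pair, but not in dCIS (0.04 to 0.34).

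Named genes are the 10 members, Hdac9, up to 4 called genes with the smallest p per list and a few defining ones, called neighbours, and the 2 genes most alike to each member (mean of at least 5 CPM, pseudocount 0.5). Of those the rule allows, only some are printed. Members and lists were chosen with earlier results of these data known. Signalling motifs were read from coding sequence in place of a protein table. Alternatives were RLE size factors, no filter and a stricter filter (1 CPM in 4 libraries), replicate blocks, DESeq2 1.42.0, the compared groups alone, and omission of single libraries, of both KO libraries 2, or of dCIS LPS libraries 3 and 4.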

Additional observations from a re-analysis of the deposited data

Results flagged for a closer look

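In 4 of the 60 groups of 4 libraries (10 genes in 6 groups), the highest or lowest library stood apart from the nearest other by more than Dixon's 95% limit; chance flags about 1 in 20 groups. Fcgrt was at 110.3 CPM in untreated KO library 2, against 23.71 to 37.23 CPM in the other 3. Fcgr3 was at 329.5 CPM in the same library, against 250.2 to 259.5 CPM. Clec4n was at 97.72 CPM in dCIS LPS library 4, against 66.98 to 71.11 CPM. Fcgr2b was at 928.0 CPM in KO LPS library 1, against 1020 to 1034 CPM.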

How the results depend on the processing

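The counts of called genes for LPS within each genotype stayed at 7 to 10 of 10 under every alternative, all of which scaled the libraries. Between KO and WT the count of 0 became 1 untreated with the compared groups alone, with DESeq2 (Fcer1g each) and without both KO libraries 2 (Fcgrt), and 1 after LPS without both KO libraries 2 (Fcgrt). Over all genes the untreated count went from 1079 to 2351, 1999 and 1000 in that order, and after LPS from 405 to 322. Between dCIS and WT after LPS the count among the 10 genes became 1 with DESeq2 (Fcer1g), where that over all genes went from 38 to 218. Between KO and dCIS untreated the count of 4 became 2 with the compared groups alone, 5 without a filter and without both KO libraries 2, and ran from 1 to 5 without single libraries; after LPS the count of 0 became 1 without a filter and ran from 0 to 1 without single libraries (Clec4n). Without single libraries Fcgrt ran from -0.87 to 0.47 for LPS in KO, and from -0.92 to 0 for untreated KO against WT and against dCIS. The cause of these shifts was not tested. Without a filter Fcgrt and Clec7a were called lower after LPS in all 3 genotypes (Fcgrt -0.36, -0.37 and -0.59 in WT, KO and dCIS). Of 811 refits of 51 named values, 758 kept direction and call, 34 gained a call, 15 lost it and 4 changed sign. Named values here are every LPS response and any other value at an unadjusted p under 0.05 or called in some fit. The other 59 values, called in no fit, changed sign in 121 of 1059 refits.

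With the replicate block over all groups, KO against dCIS after LPS went from 0 to 1 called gene (Clec4n 0.46, edgeR adjusted p 0.0242). The block within genotype gave 9 called genes for LPS in WT, 9 in KO and 10 in dCIS, where the numbers did not meet the pairing rule although each library's closest match was its own number (Clec7a -0.59, 0.000127; Fcgrt -0.45, 0.000139). The blocks changed no other call among the named values apart from Clec7a with the block over all groups (-0.63, -0.46 and -0.60 in WT, KO and dCIS). Depth limits none of the 10 genes to near 0 counts; the spread between libraries sets the intervals, and counting intervals would cover counting error only.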
